A study of Mus musculus with 8 samples.

Results

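The genes described here were 10 imprinted mouse genes at loci that CTCF is known to regulate, namely H19, Igf2, Kcnq1ot1, Dlk1, Meg3, Peg3, Grb10, Peg10, Plagl1 and Mest, of 34328 protein-coding and lncRNA genes annotated on the mouse autosomes and the X chromosome. They were chosen by name, with earlier results of these data known. The intervals between H19 and Igf2 and between Dlk1 and Meg3 were added. Around each gene, every chromatin loop with an anchor within 25 kb of the gene body, every topologically associating domain (TAD) touching the gene body and every CTCF peak within 25 kb were collected. Hi-C, which counts contacts between pairs of genomic sites, was made from wild-type v6.5 mouse ES cells grown with LIF and without feeders, and from lens epithelium and lens fibers of newborn CD-1 mice at postnatal day 0.5, with 30 lenses pooled per Hi-C replicate. Each cell type had 2 Hi-C replicates, which the authors merged into 1 loop list and 1 TAD list, so that no list carries an error between replicates. CTCF ChIP-seq peaks came from 1 sample of lens epithelium and 1 of lens fibers by the labels, with 200 lenses each. The study's methods state biological replicates for this assay, which the peak lists do not separate. Differences between cell types are therefore given as values with no test between conditions, and a loop missing from a list is a loop that was not called, not a contact shown to be absent. The lists hold no expression values, so that the labelled cell types could not be checked against their marker genes.

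Imprinted genes are expressed from the maternal or the paternal copy, according to DNA methylation laid down in the germ line at an imprinting control region. At H19 and Igf2, the unmethylated maternal control region between the genes is bound by CTCF, which acts as an insulator between Igf2 and its distal enhancers, while methylation of the paternal copy prevents CTCF binding. CTCF together with cohesin also holds the anchors of many chromatin loops. The lists do not separate the parental copies, so that every value below is a sum over both.

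Sequences are shown for 4 promoters, a single promoter per gene, that lay wholly within a loop anchor of at most 10 kb. Each holds a transcription start that a listed contact covered. They are the RefSeq promoter windows of build GRCm38.p6, from 250 bases before to 50 bases after the start, read 5′ to 3′ on the strand of the gene. Capitals mark matches to CNNGGNGGC or, on the opposite strand, GCCNCCNNG, the core letters of the CTCF motif searched on both strands. The windows are Igf2 at chr7:142666767-142667066 (minus strand), Kcnq1ot1 at chr7:143296498-143296797 (minus strand), Peg3 at chr7:6730370-6730669 (minus strand) and Grb10 at chr11:12037371-12037670 (minus strand). A further Igf2 window, at chr7:142661222-142661521, lay within the same anchors and is not printed. The contacts do not tell these Igf2 starts apart.
Igf2: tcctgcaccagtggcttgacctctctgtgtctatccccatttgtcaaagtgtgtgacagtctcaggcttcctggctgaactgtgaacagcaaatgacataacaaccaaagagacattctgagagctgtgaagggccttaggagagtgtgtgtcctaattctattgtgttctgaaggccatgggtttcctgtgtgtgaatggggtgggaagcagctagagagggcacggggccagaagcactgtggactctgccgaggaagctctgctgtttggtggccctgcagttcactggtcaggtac
Kcnq1ot1: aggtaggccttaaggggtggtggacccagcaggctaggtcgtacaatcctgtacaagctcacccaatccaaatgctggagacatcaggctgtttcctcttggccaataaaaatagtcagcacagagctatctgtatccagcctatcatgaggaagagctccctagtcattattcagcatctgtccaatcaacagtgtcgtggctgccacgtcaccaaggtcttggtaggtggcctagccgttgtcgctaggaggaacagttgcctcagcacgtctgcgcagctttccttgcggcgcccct
Peg3: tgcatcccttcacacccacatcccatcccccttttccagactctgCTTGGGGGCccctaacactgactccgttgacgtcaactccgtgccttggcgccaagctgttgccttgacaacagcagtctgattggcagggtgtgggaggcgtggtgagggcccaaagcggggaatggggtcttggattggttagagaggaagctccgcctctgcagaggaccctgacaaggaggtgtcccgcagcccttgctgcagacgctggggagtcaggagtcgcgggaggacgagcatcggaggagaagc
Grb10: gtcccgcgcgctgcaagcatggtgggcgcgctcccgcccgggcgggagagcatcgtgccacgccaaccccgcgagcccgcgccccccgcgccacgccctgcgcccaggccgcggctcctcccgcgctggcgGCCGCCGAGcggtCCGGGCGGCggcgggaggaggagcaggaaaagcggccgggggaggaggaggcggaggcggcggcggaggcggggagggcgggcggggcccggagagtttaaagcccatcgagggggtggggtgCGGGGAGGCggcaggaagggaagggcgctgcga
The Grb10 window held 3 matches, that of Peg3 held 1, and those of Igf2 and Kcnq1ot1 held none. Among 15 promoter windows found for 8 of the 10 genes, some of which overlap, 6 held a match, and 29.4% of all 32619 promoter windows of this length did. The letters are a short part of the motif, so that a match is not a binding site. No CTCF peak of either lens list lay within any of the 4 windows printed here. H19 and Peg10 had no entry in the table.

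Loops lay near 5 of the 10 genes in the ES cell list, near 8 in the epithelium list and near 6 in the fiber list. Among all annotated genes, 51.2% had a loop anchor within 25 kb in ES cells, 48.9% in epithelium and 47.2% in fibers, so that the ES cell share was close to this background. The epithelium count of 8 fell to 6 when every FDR of a loop had to be below 0.01, where the background was 43.0%, and to 6 when anchors of 25 kb were left out, where it was 35.5%. With no window around the body, anchors lay over 4 genes in ES cells, 5 in epithelium and 3 in fibers, against 26.2%, 26.8% and 25.8% of all genes. The genes had a median length of 21.3 kb against 12.8 kb over all genes, and the part of length in these shares was not tested. In numbers of loops, the genes had 20 in ES cells, 14 in epithelium and 11 in fibers. With every FDR below 0.01 these became 16, 11 and 11. The ES cell loops lost were those from Igf2 to Syt8 and Tnni2, from Plagl1 to Hivep2, of 210 kb from Grb10 to Ddc, and of 140 kb at Peg3. H19 and Dlk1 had loops in both lens lists and none in the ES cell list, and Kcnq1ot1 had a loop in the epithelium list alone. Igf2, Peg3, Grb10 and Plagl1 had loops in every list and Peg10 in those of ES cells and epithelium, whereas Meg3 and Mest had none in any.

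**Figure D1:**
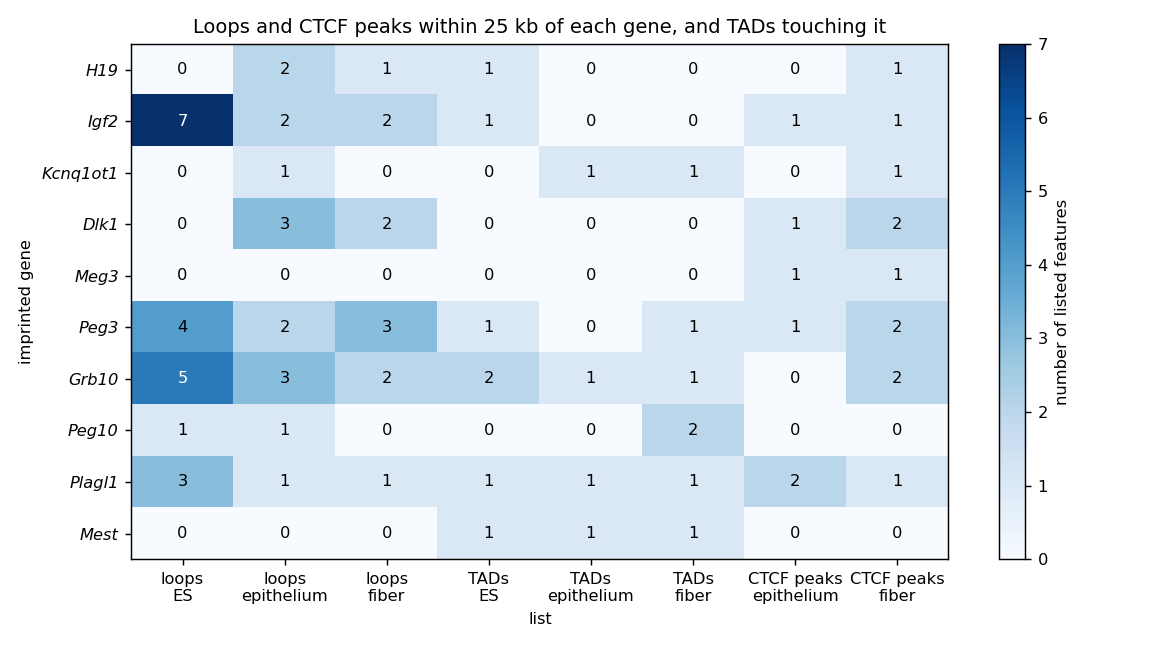
Number of listed loops (anchor within 25 kb), TADs (touching the gene body) and CTCF peaks (within 25 kb) for each gene, with genes as rows, lists as columns and the count printed in each cell. Igf2 had 7 loops in the ES cell list and 2 in each lens list, while Meg3 had CTCF peaks without loops and Mest had TADs alone.

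Distal chromosome 7 carries H19, a maternally expressed lncRNA (chr7:142575530-142578146), and Igf2, the paternally expressed insulin-like growth factor 2 (chr7:142650768-142666816). In lens epithelium a loop of 250 kb joined chr7:142330001-142340000, within Ifitm10, to chr7:142580001-142590000, which begins 1.855 kb beyond the end of H19 that faces Igf2. The same pair of anchors was listed in lens fibers. The epithelium map had 42 contacts there against 12.3 expected from the surrounding donut, an enrichment of 3.43 with an interval of 2.47 to 4.63. In fibers 51 contacts stood against 17.7 expected, an enrichment of 2.88 with an interval of 2.15 to 3.79. These intervals are exact Poisson 95% intervals of the observed count with the expected count held fixed, and they cover counting error only. The ES cell list had no loop with this anchor. Its nearest one to H19 joined Ifitm10 to Mrpl23 and Nctc1 and ended 25.5 kb from H19, just outside the window.

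A CTCF peak lay within the H19-side anchor of this loop in lens fibers, at chr7:142581736-142581961, with its summit 3.65 kb beyond the end of H19, in the stretch where the H19 control region is known to lie. Its fold enrichment was 4.29 and its −log10 q was 4.29, which put it at percentile 5.93 of all fiber peaks by fold enrichment. The epithelium list had no peak there, and its nearest peak to H19 was 93.9 kb away. The Ifitm10 side of the loop carried a peak in both lists, with a fold enrichment of 6.65 in epithelium and 10.2 in fibers. A further fiber peak in the interval between H19 and Igf2 lay at chr7:142610682-142610913, within the lncRNA Gm33148, with a fold enrichment of 5.27. Thus the interval of 72.6 kb held 2 fiber peaks and no epithelium peak. Loop anchors reached into it from 2 loops in ES cells, 2 in epithelium and 1 in fibers, and those in ES cells overlapped it by 767 bp at the Igf2 end.

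A CTCF peak between Igf2 and Ins2, the insulin 2 gene, lay 5.44 kb beyond Igf2 in epithelium, with a fold enrichment of 4.90, and 5.55 kb beyond it in fibers, with a fold enrichment of 6.20. The peak fell within 5 loop anchors of the ES cell list, 1 of the epithelium list and 1 of the fiber list. From this end of Igf2, loops ran back over H19 to Ifitm10 in every list, spanning 340 kb in ES cells, 350 kb in epithelium and 340 kb in fibers. Their enrichment was 3.29 in ES cells (40 contacts), 3.35 in epithelium (32 contacts) and 2.94 in fibers (43 contacts), with overlapping intervals. The fiber loop matched both others with midpoints within 10 kb, and the ES cell and epithelium loops matched each other within 25 kb.

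Other Igf2 loops differed between the lists. In ES cells they reached Syt8 and Tnni2 (34 contacts against 9.9 expected, highest FDR 0.0180), Lsp1 (121 against 45.2) and Mrpl23 (33 against 9.6). In fibers a loop of 120 kb joined chr7:142660001-142670000 to Mrpl23 and the lncRNA Nctc1, with 53 contacts against 18.5 expected. Its Igf2 anchor covered the upstream Igf2 promoter printed above and the further Igf2 window that is not printed. It matched the ES cell loop to Mrpl23 within 10 kb. In epithelium the Igf2 promoter anchor was joined instead to chr7:142600001-142610000 inside the H19-Igf2 interval, over Gm33148, at a distance of 60 kb with 56 contacts against 23.1 expected. The inner anchor of that loop ended 682 bp before the fiber peak within Gm33148, and neither of its anchors overlapped a peak of the epithelium list.

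Loops at long range were listed in ES cells. In ES cells Igf2 was joined to Cdkn1c, a maternally expressed inhibitor of the cell cycle, over 790 kb with 21 contacts against 4.4 expected. A 25 kb anchor over Igf2 in the same list was joined to Ebf3 over 5350 kb, with 26 contacts against 2.6 expected, and to Hmx2 and Hmx3 over 11125 kb, with 16 contacts against 2.2 expected. The Ebf3 loop had the highest enrichment of all loops near the 10 genes, 10.1 with an interval of 6.58 to 14.8. Ebf3, Hmx2 and Hmx3 encode transcription factors of development. Neither lens list held a loop above 3 Mb at any of the 10 genes. Near these genes the epithelium list held 14 loops in all and the fiber list 11. Across the genome, the paper reports fewer loops of such length in both lens cell types than in ES cells. Their absence near these genes is therefore not read as a trait of the genes. The ES cell list alone held a TAD over H19 and Igf2, of 415 kb at chr7:142300001-142715000, running from the Ifitm10 side to beyond Ins2.

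**Figure D2:**
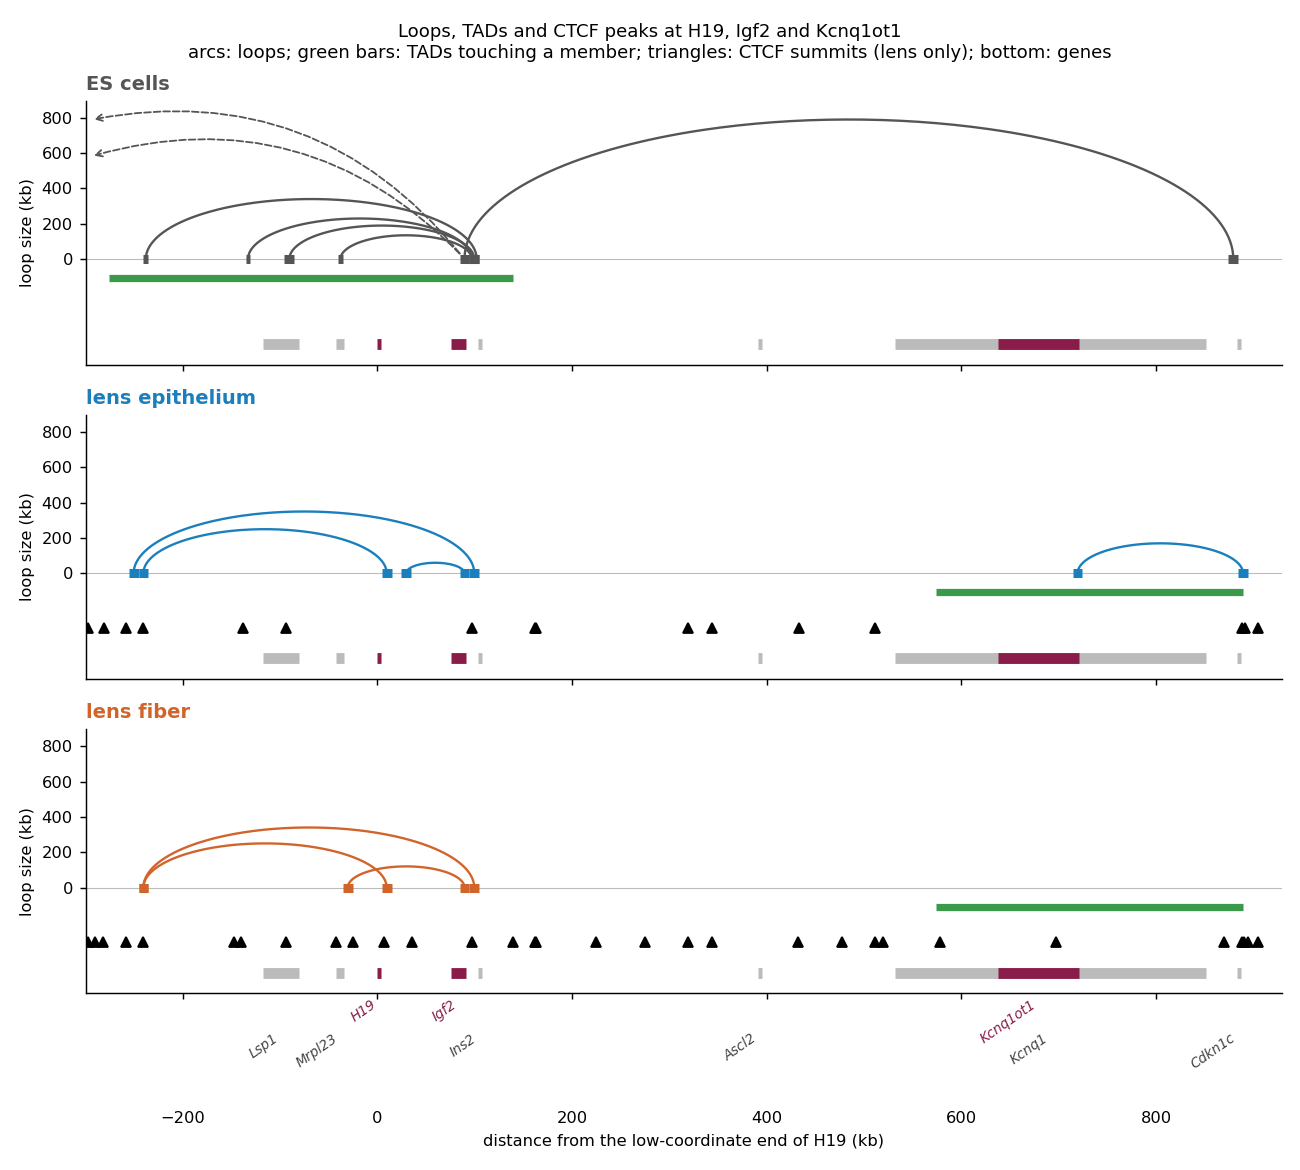
Loops near H19, Igf2 and Kcnq1ot1 in ES cells and in both lens cell types, drawn as arcs whose height is the loop size in kb over the distance from the low-coordinate end of H19 in kb. Bars on the zero line are anchors, green bars are TADs touching these genes, triangles are CTCF summits of the lens lists, genes are at the bottom, and dashed arrows are the ES cell loops of 5350 and 11125 kb. The loop of 250 kb to the H19 side appears in both lens panels, and the arc of 790 kb from Igf2 to Cdkn1c in the ES cell panel.

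Kcnq1ot1, the lncRNA whose promoter is the control region of the neighbouring domain (chr7:143213111-143296547), had a loop in the epithelium list alone, and its highest FDR there was 0.0408, so that no list held a loop of this gene with every FDR below 0.01. It joined chr7:143290001-143300000, over the Kcnq1ot1 promoter printed above, to Cdkn1c over 170 kb, with 52 contacts against 18.2 expected. The Cdkn1c anchor held 2 CTCF peaks in each lens list, and the promoter anchor held none. Around this loop, a larger one of 315 kb from Kcnq1 to Gm33663 enclosed the whole of Kcnq1ot1 in all 3 lists, at identical anchors. Its enrichment was 6.54 in ES cells (72 contacts), 7.19 in epithelium (39 contacts) and 7.33 in fibers (50 contacts). Its anchors lay 58.1 kb and 168 kb from the gene, outside the window, and it was picked out after its values were seen. A TAD of 315 kb at chr7:143150001-143465000 lay on the same stretch in both lens lists and was not listed in ES cells. Fibers had a CTCF peak within Kcnq1ot1, at chr7:143272694-143272881, with a fold enrichment of 5.16, and the nearest epithelium peak was 127 kb away.

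On chromosome 12, Dlk1, a paternally expressed transmembrane regulator of differentiation (chr12:109452485-109463336), had 3 loops in epithelium, 2 in fibers and none in ES cells. All of them started at chr12:109425001-109450000, before the Dlk1 promoter, and had anchors of 25 kb. With anchors of 5 or 10 kb only, Dlk1 had no loop in any list. In epithelium the shortest reached chr12:109600001-109625000 over 175 kb, with 139 contacts against 60.1 expected. This far anchor lay over Rtl1, a paternally expressed gene derived from a retrotransposon, and over Rian, a maternally expressed lncRNA. Loops of 525 kb and 950 kb were found in both lens lists. The loop of 525 kb had 87 contacts against 33.6 expected in epithelium and 99 against 44.8 in fibers. The loop of 950 kb had 77 against 21.6 and 104 against 30.2, an enrichment of 3.57 and 3.45 with overlapping intervals. In ES cells the nearest anchor to Dlk1 was 137 kb away, at the same Rtl1 and Rian bin, and was joined away from Dlk1.

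The far anchor of the epithelium loop also covered 3 microRNA genes, Mir341, Mir1188 and Mir370, at chr12:109611521-109618326 (plus strand, RefSeq, build GRCm38.p6). Their mature sequences are given to show what this contact covered, with the seed, bases 2 to 8, in capitals.
miR-341-5p: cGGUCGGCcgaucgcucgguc
miR-341-3p: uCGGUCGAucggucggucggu
miR-1188-5p: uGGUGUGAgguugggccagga
miR-1188-3p: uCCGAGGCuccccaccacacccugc
miR-370-5p: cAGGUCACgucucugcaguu
miR-370-3p: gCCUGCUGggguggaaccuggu
No seed was shared among the 6 sequences.

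A CTCF peak lay at the shared Dlk1-side anchor in both lens lists, at chr12:109437726-109438056 in epithelium with a fold enrichment of 6.01 and at chr12:109437830-109438084 in fibers with a fold enrichment of 8.0. Its summit was 14.6 kb before Dlk1 in both. A second fiber peak lay within Dlk1 itself, 0.101 kb from its far end, with a fold enrichment of 4.94. Meg3, the maternally expressed lncRNA of this domain (chr12:109540996-109571729), had a CTCF peak in both lists, 2.03 kb inside the gene from its start in epithelium and 2.10 kb in fibers. At Meg3 the order was the opposite of that at Dlk1, with a fold enrichment of 7.94 in epithelium, the highest among the peaks of that list near the 10 genes, and 5.18 in fibers. By rank within their own lists these stood at percentile 85.2 and percentile 23.2. No loop anchor of any list lay within 25 kb of Meg3, and the peak lay in no anchor. The interval of 77.7 kb between Dlk1 and Meg3 held no CTCF peak, no loop anchor and no TAD in any list, although the IG-DMR, the control region of this domain, lies there. No TAD touched Dlk1 or Meg3 in any list.

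Peg3, a paternally expressed zinc finger gene (chr7:6703892-6730462), had 4 loops in ES cells, 2 in epithelium and 3 in fibers. The ES cell loops all left Peg3 on the side of Zim1, a maternally expressed zinc finger gene. From within Peg3 they reached Zfp78 over 365 kb (22 contacts against 4.3 expected), Smim17 over 290 kb (19 against 3.2) and an intergenic anchor over 140 kb (66 against 15.9). The remaining one, of 100 kb, ended in Zim1 with 31 contacts against 7.3 expected. In the lens lists, loops also left on the other side, into Usp29, the paternally expressed gene that starts next to Peg3. The epithelium loop joined the Peg3 promoter bin, chr7:6730001-6740000, to Usp29 over 180 kb, with 47 contacts against 9.8 expected. The fiber loop covered 200 kb, with 62 contacts against 20.2 expected, and its anchors were those that adjoin the epithelium anchors, so that the pair matched at the limit of 10 kb without overlapping. A shorter fiber loop joined the promoter bin to Usp29 over 50 kb, with 57 contacts against 23.6 expected. On the Zim1 side, a Zim1 anchor was joined to Zfp78 over 325 kb in epithelium (66 contacts against 25.8 expected) and to Smim17 over 250 kb in fibers (101 against 49.1). None of the 4 ES cell loops near Peg3 reached Usp29. An ES cell loop of 285 kb with anchors outside the window enclosed Peg3, however, and ended within Usp29. It had 14 contacts against 1.8 expected, an enrichment of 7.85. Loops that enclosed Peg3 and ended within Usp29 were also listed in epithelium and fibers. These enclosing loops were picked out after their values were seen. Contact with Usp29 across Peg3 was thus not particular to the lens lists.

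The CTCF peak within Peg3 was among the widest of either list. It spanned 665 bp in epithelium, at chr7:6727190-6727854, and 732 bp in fibers, at chr7:6727120-6727851, which was wider than all but a small part of each list (percentile 99.8 in both). Its fold enrichment was 6.71 in epithelium and 7.12 in fibers, and its summit lay 3.03 kb and 3.06 kb inside the promoter end of the gene. It fell within 2 anchors of the ES cell list and 1 of the fiber list. A fiber peak in Zim1, with a fold enrichment of 6.58, had no counterpart in epithelium. A TAD held Peg3 in ES cells, of 700 kb, and in fibers, of 675 kb, and both ended at the same coordinate. The epithelium list had none there.

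Grb10, an adaptor that restrains growth factor signalling (chr11:11930499-12037428), had 5 loops in ES cells, 3 in epithelium and 2 in fibers. Its anchor at chr11:11970001-11975000, within the gene, was joined to Ddc, which encodes aromatic amino acid decarboxylase, in every list. The Ddc-side anchor was chr11:11810001-11815000 in ES cells and chr11:11820001-11825000 in both lens lists. These anchors did not overlap, and the loops matched at the limit of 10 kb. The contacts numbered 114 against 16.2 expected in ES cells over 160 kb, 24 against 4.3 in epithelium over 150 kb and 27 against 5.8 in fibers over 150 kb. The enrichment was 7.03 (5.80 to 8.45) in ES cells, 5.53 (3.54 to 8.23) in epithelium and 4.69 (3.09 to 6.82) in fibers, and the intervals overlapped. From the promoter side, a loop of 500 kb ran to an intergenic anchor in ES cells (252 contacts against 69.9 expected) and in epithelium (73 against 26.4). Loops to Cobl, which encodes an actin nucleator, were found in the lens lists alone, with 34 contacts against 11.6 expected over 260 kb in epithelium (highest FDR 0.0110) and 209 against 77.5 over 250 kb in fibers. The ES cell list had further loops from Grb10 to Ikzf1 over 350 kb, to Ddc from the promoter side over 210 kb, and to Gm11998 over 420 kb.

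Fibers had 2 CTCF peaks within Grb10, at the anchor joined to Ddc and at the promoter-side anchor of 25 kb. They lay at chr11:11973532-11973740 with a fold enrichment of 5.35 and at chr11:12025720-12025992 with a fold enrichment of 5.81. In epithelium no peak lay within 25 kb of the gene. The nearest was 110 kb away, within the Ddc-side anchor of the Ddc loop listed there, with a fold enrichment of 4.80. Grb10 was never wholly within a TAD. In ES cells a TAD of 170 kb covered the Ddc side and another of 530 kb the promoter side, with the stretch of the gene between them in neither. In epithelium a TAD of 95 kb and in fibers a TAD of 150 kb covered the Ddc side.

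Plagl1, a paternally expressed zinc finger transcription factor (chr10:13090832-13131694), had a loop to the same gene in every list. This loop, from just before its promoter to Phactr2, spanned 340 kb in ES cells, 335 kb in epithelium and 340 kb in fibers. The epithelium loop had a highest FDR of 0.0238 and was lost when every FDR had to be below 0.01. The contacts numbered 31 against 6.7 expected, 22 against 5.8 and 70 against 20.5, and the enrichments were 4.61, 3.78 and 3.41 with overlapping intervals. A TAD lay over the same stretch in each list, of 430 kb in ES cells, 370 kb in epithelium and 360 kb in fibers. The ES cell list added loops to Hivep2 over 900 kb and to an intergenic site over 70 kb. The CTCF peaks did not match between the lens lists. Fibers had a peak 3.44 kb before Plagl1, within the loop anchor, with a fold enrichment of 7.75, while epithelium had one 19.6 kb before the gene, with a fold enrichment of 5.67, and one within the gene, with a fold enrichment of 7.08.

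Peg10, a paternally expressed gene derived from a retrotransposon (chr6:4747306-4760517), had different loops in the lists. In ES cells its bin was joined to Ppp1r9a over 370 kb, with 55 contacts against 19.8 expected. In epithelium it was joined in the opposite direction over 175 kb, with anchors of 25 kb, with 98 contacts against 47.5 expected, one of the lowest enrichments of its list (2.06, percentile 4.8). In both lists the Peg10-side anchor also covered Sgce, the paternally expressed gene beside Peg10, and the other anchor did not. Fibers had no loop within 25 kb, but 2 TADs held Peg10, of 860 kb and 555 kb. No CTCF peak lay within 25 kb in either lens list, and the nearest was 38.9 kb away in epithelium and 201 kb away in fibers.

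Mest, a paternally expressed gene of the hydrolase fold (chr6:30733506-30748466), had neither a loop nor a CTCF peak within 25 kb. The nearest anchor was 194 kb away in ES cells, 209 kb in epithelium and 227 kb in fibers. It lay within a TAD in every list, of 530 kb in ES cells, 635 kb in epithelium and 530 kb in fibers. A loop enclosed the gene in each list, of 450 kb in ES cells, 475 kb in epithelium and 575 kb in fibers, with enrichments of 2.75, 1.90 and 2.43.

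**Figure D3:**
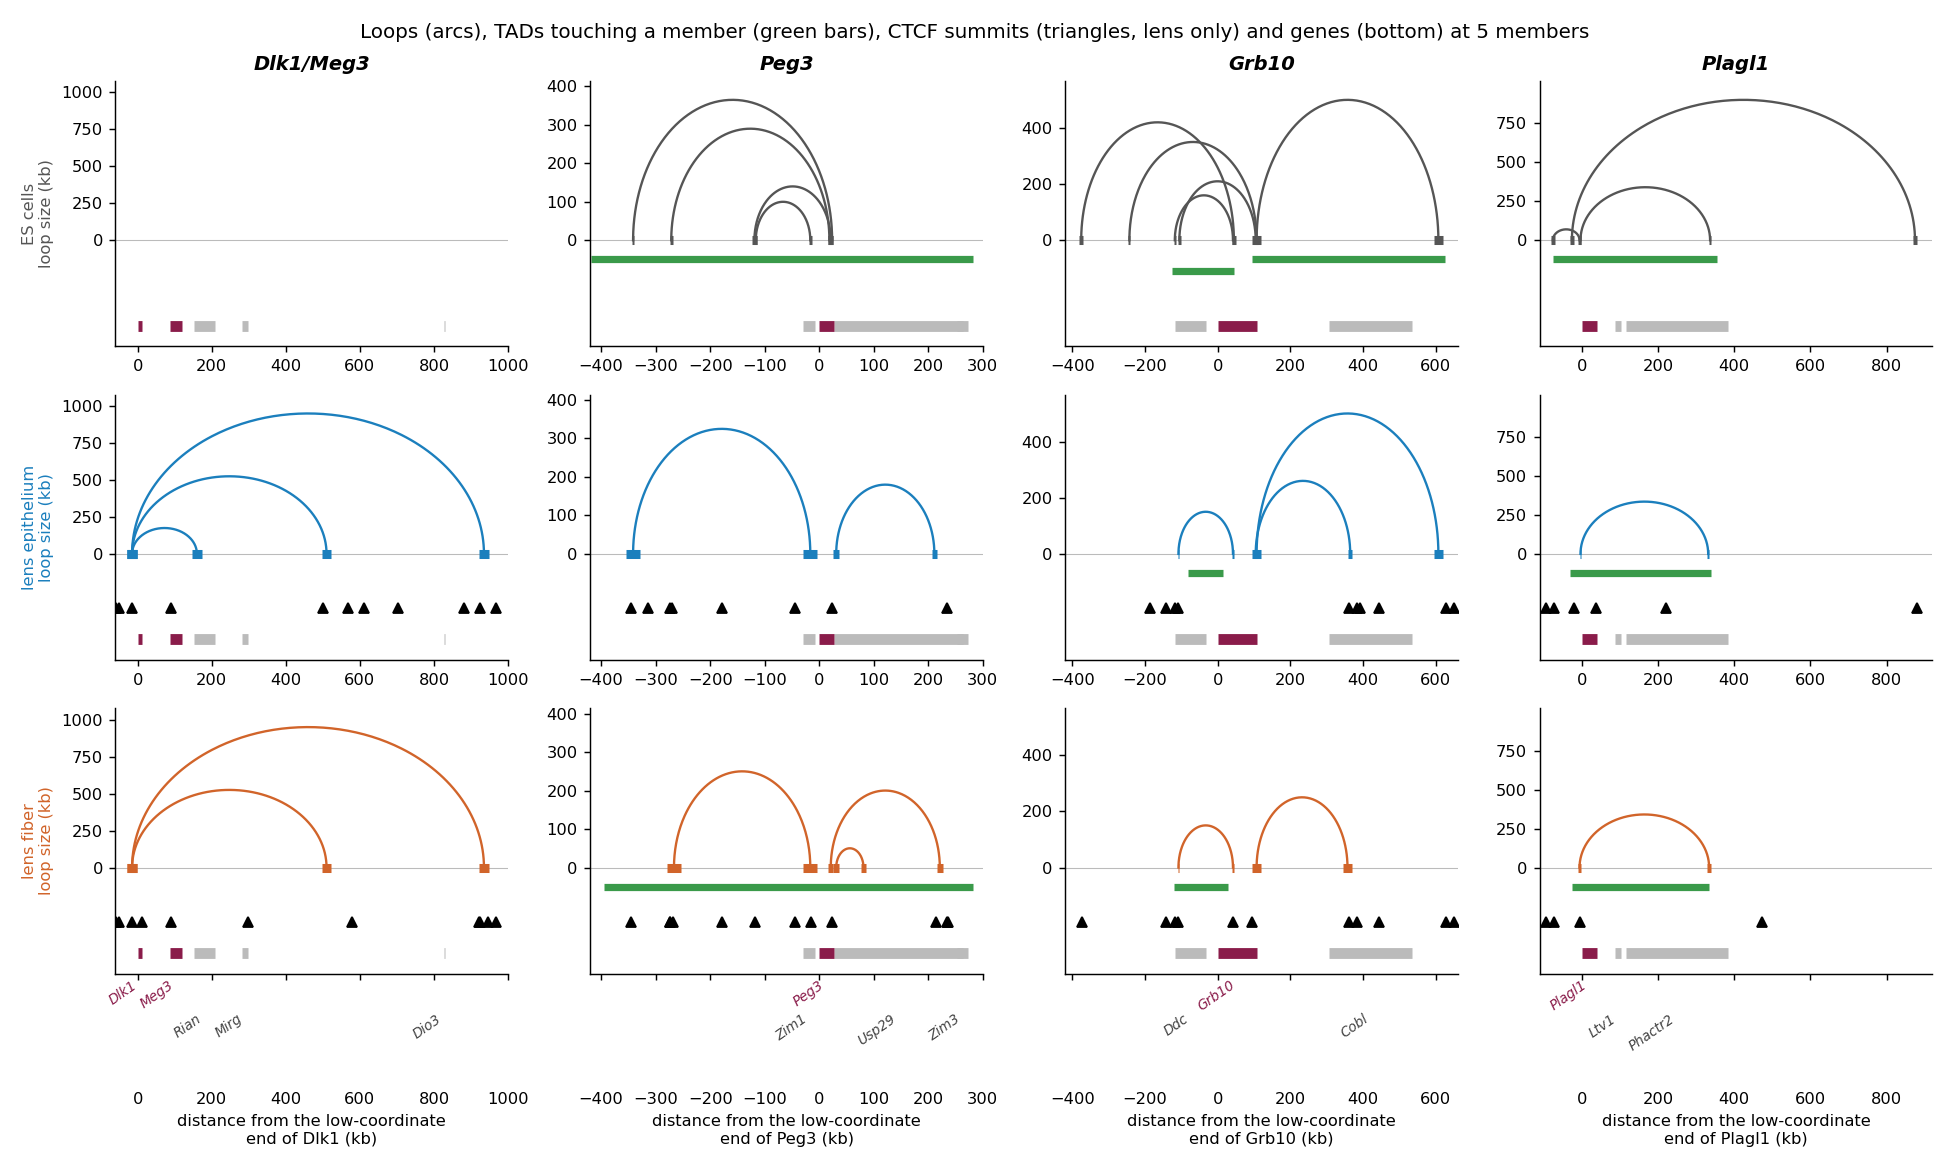
Loops (arcs, height is loop size in kb), TADs touching the gene (green bars), CTCF summits of the lens lists (triangles) and genes (bottom) at Dlk1 and Meg3, Peg3, Grb10 and Plagl1, over the distance in kb from the low-coordinate end of the named gene, with 1 row for each list. The Dlk1 panel has arcs in the lens rows and none in the ES cell row, the Peg3 arcs point to both sides in the lens rows, and Plagl1 has an arc of 335 to 340 kb in each row.

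TADs touched 6 of the 10 genes in ES cells, 4 in epithelium and 6 in fibers. The background over all genes was 42.7% in ES cells, 26.2% in epithelium and 34.3% in fibers, in lists of 3604, 1796 and 2641 TADs. CTCF peaks lay within 25 kb of 5 genes in epithelium and 8 in fibers, where the background was 49% and 63.6%. Thus 5 of 10 genes in epithelium was close to its background. The 6 epithelium peaks and the 11 fiber peaks near the genes included 4 that overlapped between the lists, namely those at Igf2, Dlk1, Meg3 and Peg3. Fold enrichments ranged from 4.90 to 7.94 in epithelium and from 4.29 to 8.0 in fibers. In fibers 7 of 11 stood below the median of all fiber peaks (6.44), and in epithelium 2 of 6 stood below that of all epithelium peaks (5.78). The fiber list is the longer one, with 23868 peaks against 16433, and when it was reduced to the strongest 16433 peaks by p-value, those at H19, Kcnq1ot1, Meg3 and Grb10, that within Dlk1 and that within Gm33148 dropped out, which left 5 fiber peaks at 4 genes.

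**Figure D4:**
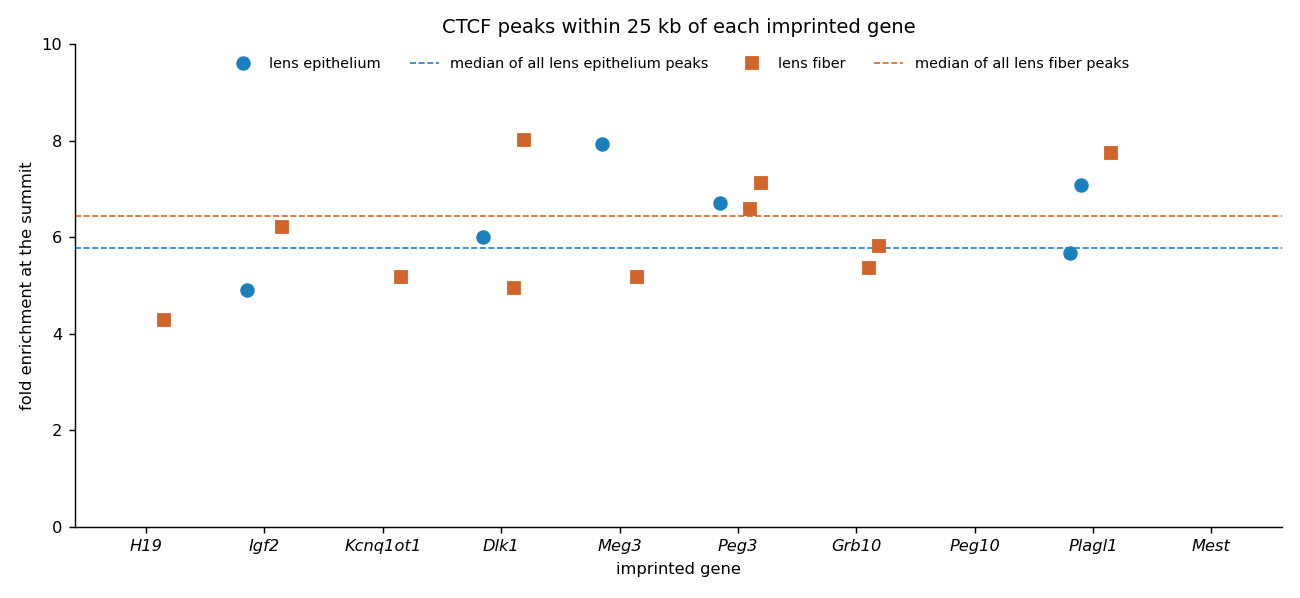
Fold enrichment at the summit of each CTCF peak within 25 kb of each imprinted gene, with epithelium peaks as circles, fiber peaks as squares and dashed lines at the median of each whole list. The fiber peak at H19 is the lowest point (4.29), and the order of the lists at Meg3 is the opposite of that at Dlk1.

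Sharing of loops near the genes was set beside that of the whole lists. Of 14 epithelium loops 8 had a counterpart in fibers with both midpoints within 10 kb, and of 11 fiber loops 8 had one in epithelium, while over the whole lists 55.5% and 57.8% did. Of 20 ES cell loops 3 had a counterpart in epithelium and 4 in fibers, against 35.9% and 34.6% of the whole list, and 15 had none in either. In the other direction 3 of 14 epithelium loops and 4 of 11 fiber loops were found in ES cells, against 37.9% and 38.1%. H19 and Igf2 share loops, so that these counts are not of independent genes. Among 15 matched pairs of loops, the intervals of the enrichment overlapped in 15 (some loops enter more than 1 pair). The point values had 1 direction, however. The enrichment was higher in ES cells in all 7 pairs with an ES cell loop. In every pair of epithelium with fibers it was higher in epithelium, by a ratio of 1.04 to 1.56. Overlap of intervals does not show equal enrichment, and these differences were not tested. The median enrichment near the genes was 4.18 in ES cells, 2.90 in epithelium and 2.88 in fibers, and over all loops it was 3.06, 3.05 and 2.83. Anchor width moved with this, since 9 of the 20 ES cell loops had anchors of 5 kb, against 2 of 14 in epithelium and 1 of 11 in fibers, and its part in the difference was not tested.

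**Figure D5:**
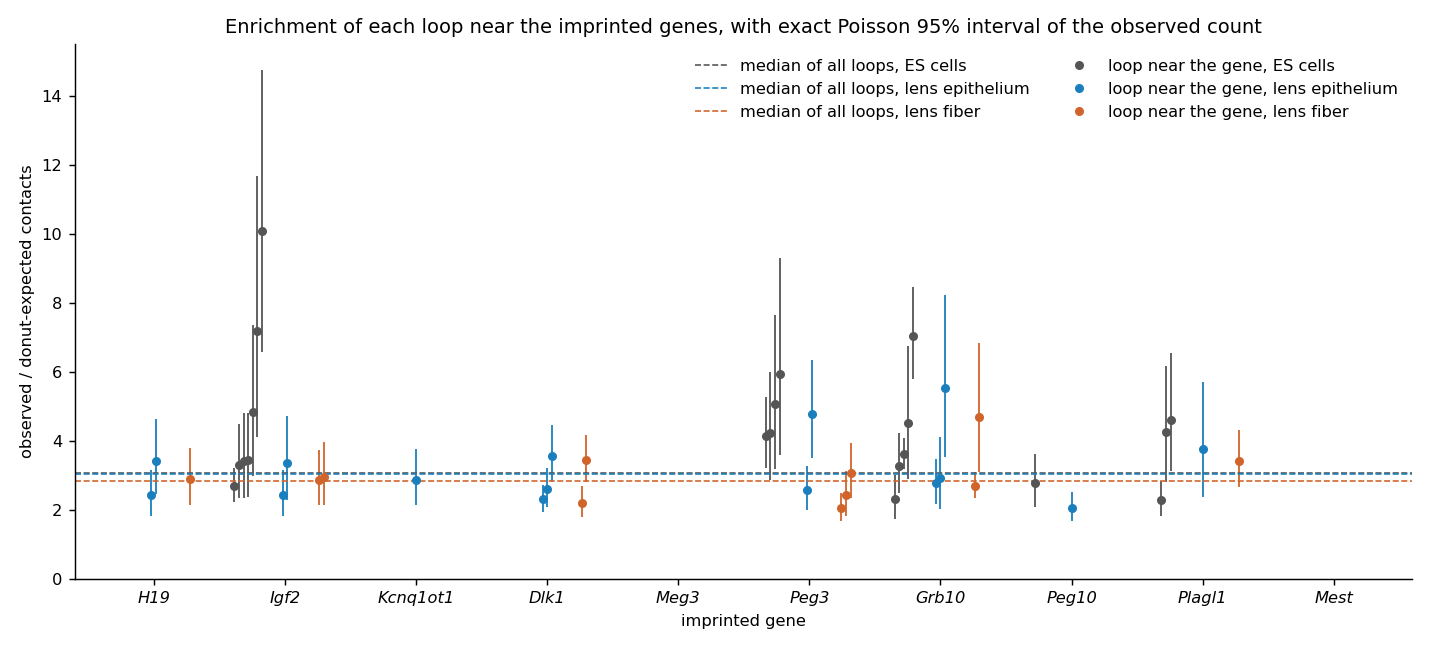
Observed over donut-expected contacts for every loop near each imprinted gene, with exact Poisson 95% intervals of the observed count and dashed lines at the median of all loops of each list. The ES cell loops of Igf2 reach 10.1, most lens loops lie between 2 and 4, and Meg3 and Mest have no point.

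Of the 14 epithelium loops, 2 had an epithelium CTCF peak at both anchors, 7 at a single anchor and 5 at neither. In fibers the counts were 6 of 11, 4 and 1. Over the whole lists both anchors had a peak in 15.7% of epithelium loops and 39.1% of fiber loops. Neither anchor had a peak in 39.5% and 16.6%. The epithelium loops with a peak at both ends were those of 525 kb and 950 kb at Dlk1, both with anchors of 25 kb. The peak at the far anchor of the loop of 525 kb had a fold enrichment of 3.98, at percentile 4.45 of its list. The fiber loops with peaks at both ends were that from H19 to Ifitm10, the loop of 340 kb from Igf2 to Ifitm10, both Grb10 loops, the Dlk1 loop of 950 kb and the loop from Smim17 to Zim1 beside Peg3. The H19-side peak and the peaks within Grb10 dropped out when the fiber list was cut to the length of the epithelium list. The fiber loop from H19 to Ifitm10 and both Grb10 loops thus rest on weaker peaks of the longer list. The part of list length in the difference between the cell types was not tested. No peak list of ES cells was used here.

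Neighbours of the 10 genes in the same imprinted domains were counted from a list of 53 genes, of which 52 were in the gene table. Loops lay within 25 kb of 37 of them in ES cells (71.2%), 30 in epithelium (57.7%) and 32 in fibers (61.5%). Among all annotated genes these shares were 51.2%, 48.9% and 47.2%. CTCF peaks lay near 32 in epithelium (61.5%) and 34 in fibers (65.4%), against 49% and 63.6% of all genes, so that the fiber share was close to its background. On distal chromosome 7, the counts for 19 neighbours were 17 in ES cells, 10 in epithelium and 13 in fibers. Osbpl5, at the far end of the Kcnq1ot1 domain, had the most fiber loops among these 19, with 6, beside 4 in ES cells and 2 in epithelium. Usp29 had the most loops among the Peg3 neighbours, with 10 in ES cells, 4 in epithelium and 6 in fibers. Dio3, the deiodinase gene at the far end of the Dlk1 domain, had 2 loops in ES cells and none in the lens lists. Among 5 neighbours of Mest, Klf14 alone had a loop, with 1 in each list. Neighbours share anchors, so that these counts describe the domains and not independent genes.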

How the data were processed

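The authors aligned the Hi-C reads to build mm10 with BWA and Juicer, merged the replicates of each cell type, and called loops (HiCCUPS) and TADs (Arrowhead) with juicer_tools 2.13.06. In the deposited loop lists, the observed value is a raw count of contacts, the expected values are local estimates, and each FDR is a q-value. The authors called CTCF peaks with MACS2, and each deposited peak has a score, a fold enrichment (a ratio to the local background), and its p-value and q-value as −log10. Hi-C and ChIP-seq read depths are not in the lists. From there, intervals were overlapped in Python 3.11.15 (pandas 2.3.3, numpy 2.4.6, scipy 1.17.1) and figures used matplotlib 3.10.9. The functions were tested on simulated data. Gene bodies came from the RefSeq table of GRCm38.p6, the assembly of mm10. Loops matched when both midpoints lay within 10 kb, and peaks when they overlapped by 1 bp. Enrichment is observed over donut-expected contacts, and background shares are over all 34328 genes. All 10 members, genes at their loop anchors and genes of fixed lists with a loop or peak could be named, and enclosing loops were added after their values were seen. The members and lists were chosen with earlier results of these data known. No test between conditions was made, since each cell type has 1 list. The alternatives changed windows, FDR, anchor widths, matching rules and peak thresholds. The labels give 1 ChIP-seq sample per cell type. CTCF peak sequences were not analysed here.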

Additional observations from a re-analysis of the deposited data

How the results depend on the processing

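Of 96 alternative settings, 75 left a count or median within 1.5 times its value and 21 did not. With no window around the gene body, loops near the genes numbered 12 in ES cells, 7 in epithelium and 5 in fibers, genes with a loop 5 in epithelium and 3 in fibers, CTCF peaks 3 in epithelium and 6 in fibers, and genes with a peak 3 and 5. With anchors of 5 or 10 kb only, loops numbered 8 in epithelium and 7 in fibers, and those of the intervals 0 in ES cells. When both anchors had to overlap, shared loops numbered 1 between ES cells and epithelium and 2 between ES cells and fibers, counted from either list. With the peak list of the other lens cell type, loops with CTCF at both anchors numbered 4 in epithelium and 3 in fibers. When the fiber peaks were limited to the strongest 16433, they numbered 5 at 4 genes, and those of the intervals 0, so that the excess of fiber over epithelium peaks was not kept. By construction, these settings count fewer loops or peaks, match them more strictly or take the other peak list. Background shares over 21631 protein-coding genes alone, an alternative chosen after seeing the data, stayed within 1.5 times. No paired analysis was possible because the lists pool the replicates, and for the same reason no replicate could be left out. Enrichments rest on as few as 16 contacts.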

Other observations

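Imprinted genes outside these domains, 31 genes of a fixed list, had a loop anchor within 25 kb in 21 cases in ES cells, 24 in epithelium and 22 in fibers, and a CTCF peak in 20 cases in epithelium and 28 in fibers. TADs touched 19, 14 and 16 of them. Over all annotated genes, in the same order of lists, the shares were 51.2%, 48.9% and 47.2% for loops and 49% and 63.6% for CTCF peaks. For TADs they were 42.7%, 26.2% and 34.3%. The listed genes had shares of 67.7%, 77.4% and 71.0% for loops, 64.5% and 90.3% for CTCF peaks, and 61.3%, 45.2% and 51.6% for TADs. Gnas, which encodes a G protein subunit, had 6 loops in ES cells, 5 in epithelium and 7 in fibers, with no CTCF peak in epithelium and 1 in fibers. Igf2r, the receptor that removes Igf2, had no loop in ES cells, 2 in epithelium and 3 in fibers. Airn, the lncRNA that silences Igf2r, had 2, 2 and 3. Snrpn, a gene of the Prader-Willi region, had 3 loops in ES cells and none in either lens list, and Dcn, which encodes decorin, had none in any. Neighbouring genes of this list share anchors, the list was chosen with earlier results of these data known, and no test was made.

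Each of the 10 genes was enclosed in every list by at least 1 loop of up to 3 Mb with an anchor on either side of the gene body. The count of such loops ranged from 1 to 5. The share of all genes enclosed in this way was not computed, so that enclosure is not read as a trait of these genes. Meg3, which had no anchor within 25 kb, was enclosed by 1 loop in ES cells, of 1230 kb with 12 contacts, and by 3 loops in each lens list, the smallest of 175 kb in epithelium and 525 kb in fibers.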
